A study of Rattus norvegicus with 12 samples.

Results

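The fibrillar collagen and matrix genes followed here were measured in RNA sequencing of crushed rat sciatic nerve. They are Col1a1, Col1a2, Col3a1, Fn1 and Sparc, chosen by their Ensembl gene IDs as 5 of the 30562 IDs in the deposited counts. Each of 4 groups had 3 libraries, 12 in all, which the labels number as replicates without naming the animals, so the p-values below measure the spread between these libraries, part of which may be technical. All groups had the sciatic nerve of male Sprague-Dawley rats crushed, and no library of uncrushed nerve was analysed here. The control group received neither exosomes nor ultrasound by its labels and was taken as the Model + PBS group of the study, although its labels do not name PBS. The iPSC-Exos group received 10 µL of exosomes, the small membrane vesicles shed by cultured induced pluripotent stem cells, at 103, 104 or 105 µg/mL by the labels of its 3 libraries, whereas the design text gives 100 µg/mL for the exosome group as a whole. The study compared concentrations on cultured Schwann cells and chose 100 µg/mL for its later experiments, including those in animals. Its surgical methods, however, state the injected dose in particles per mL, given at the proximal and distal ends of the crush. The study lists as a limitation that safety and efficacy were not compared between doses. The 3 libraries were therefore treated as replicates of a single group. The LIPUS group was treated with pulsed ultrasound of low intensity (250 mW/cm², 1 MHz, 20% duty cycle, 5 minutes a day on 5 days a week for 4 weeks). The iPSC-Exos + LIPUS group received the same ultrasound and 10 µL of exosomes at 100 µg/mL. The design text gives an age of 5 weeks for the rats. The study's methods place RNA sampling on postoperative day 7, but they do not describe the ultrasound groups, whose sampling day is not known here. A course of 4 weeks could not have been completed by day 7. Groups with and without LIPUS may therefore differ in time after the crush, which could not be told apart from ultrasound. The labels name whole brain as the tissue, whereas the extraction text and the study's methods name sciatic nerve.

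Collagen fibrils give a peripheral nerve its tensile strength, and fibroblasts of the epineurium and endoneurium are known to deposit them, most of all after injury. Type I collagen is built from the chains encoded by Col1a1 and Col1a2, and type III collagen from the chain encoded by Col3a1. Fibronectin, encoded by Fn1, is an adhesive glycoprotein on which collagen is laid down and along which Schwann cells migrate. Sparc encodes a secreted calcium-binding glycoprotein that binds collagen and takes part in its assembly.

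The counts of these genes were at or close to 0 in every group. Over the 12 libraries, 3 of the 5 genes had no count at all, Col3a1 had 4 counts and Fn1 had 22. Together the 5 genes held 26 of 16797697 counts, or 0.000155% (95% Wilson interval 0.000106 to 0.000227%, counting error only). Of the 60 values of a gene in a library, 48 were 0. Neither a collagen response to exosomes nor one to ultrasound could therefore be measured, and the results below are assigned counts and their limits of detection.

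These values belong to rows named by an ID, and 2 links behind the gene names were not checked. The ID of each symbol came with the list of genes. The RefSeq gene table of assembly GRCr8 holds all 5 symbols, but 0 of its 47357 genes carry an Ensembl ID, so the pairing had no second source here. The submitters' processing notes name the genome build Rnor_6.0, while the annotation release behind the IDs is not given in the sources used here. The notes also list StringTie, which can quantify transcripts, but give it no role, so the step that made the counts is not known here. Whether the annotation that gave the IDs belongs to that build was not tested. A transcript that was absent from the RNA and reads that were not assigned to its ID therefore cannot be told apart. Each 0 and each CPM value or limit below describes reads assigned to that ID. None of them is a level of collagen, fibronectin or SPARC mRNA in the nerve, or a limit on one. In bulk tissue, fewer cells of a type and less RNA per cell cannot be told apart either.

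Depth sets the limits. Totals lay between 1251715 and 1854545 counts, with a median of 1344221, and between 7470 and 8704 IDs had a count in a library. CPM here is the number of counts per 1000000 of the library total after TMM scaling, edgeR's correction for libraries in which a few genes take many reads. A single ID held 32.5% of the counts in control replicate 9 and the largest ID held between 2.80% and 9.28% in the other 11 libraries. A count of 3, taken as the upper limit that a count of 0 allows, corresponded to between 1.91 and 2.58 CPM in a single library. Zero counts in all 12 libraries allowed a mean level of up to 0.179 CPM. These limits cover counting error only, since reads without molecular identifiers are not independent molecules.

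The IDs of type I collagen had no count in any library. Col1a1 (ENSRNOG00000003897) was listed at 0 in control replicates 1, 4 and 9, in iPSC-Exos replicates 2, 3 and 5, in LIPUS replicates 2, 6 and 7 and in iPSC-Exos + LIPUS replicates 1, 2 and 3. Col1a2 (ENSRNOG00000011292), the second chain of the same protein, was at 0 in the same 12 libraries. For each of these genes the 3 libraries of a group together allowed up to 0.755 CPM in the control group, 0.732 CPM in the iPSC-Exos group, 0.696 CPM in the LIPUS group and 0.689 CPM in the iPSC-Exos + LIPUS group. No order of the groups exists for either gene, and no fold change can be given.

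The ID of type III collagen was close to the same limit. Col3a1 (ENSRNOG00000003357) had 3 counts in control replicate 1 and 1 count in iPSC-Exos + LIPUS replicate 1, and it was at 0 in the other 10 libraries. The control group thus held 3 counts in all, a pooled level of 0.755 CPM (exact Poisson interval 0.156 to 2.21 CPM, counting error only). The iPSC-Exos + LIPUS group held 1 count, or 0.230 CPM (exact Poisson interval 0.00581 to 1.28 CPM). The iPSC-Exos and LIPUS groups were at 0, which allowed up to 0.732 and 0.696 CPM by the limit of 3 counts used for Col1a1 and Col1a2. That limit is narrower than the upper end of a two-sided Poisson interval and is not comparable with the intervals of the control and iPSC-Exos + LIPUS groups. The intervals of the control and iPSC-Exos + LIPUS groups overlapped, and the control value rested on a single library. Without control replicate 1, the control group had no Col3a1 count either.

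Fibronectin was the one gene of the list with counts in most libraries, though with few in each. Fn1 (ENSRNOG00000014288) had 2 counts in each of control replicates 1, 4 and 9. It had 2, 0 and 1 counts in iPSC-Exos replicates 2, 3 and 5. In LIPUS replicates 2, 6 and 7 it had 3, 0 and 1 counts. In iPSC-Exos + LIPUS replicates 1, 2 and 3 it had 1, 2 and 6 counts. It was detected in 10 of the 12 libraries. The 6 counts of iPSC-Exos + LIPUS replicate 3 were the highest value of any of the 5 genes in a library, and the other 2 libraries of that group lay within the range of the control, iPSC-Exos and LIPUS libraries.

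SPARC followed the pattern of type I collagen. Sparc (ENSRNOG00000012840) was at 0 in every one of the 12 libraries, with the same limits per group as Col1a1 and Col1a2. The detected genes of the list were thus Fn1 and Col3a1 alone, and both were present in 2 libraries, control replicate 1 and iPSC-Exos + LIPUS replicate 1. In iPSC-Exos replicate 3 and LIPUS replicate 6 none of the 5 genes had a count.

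**Figure D1:**
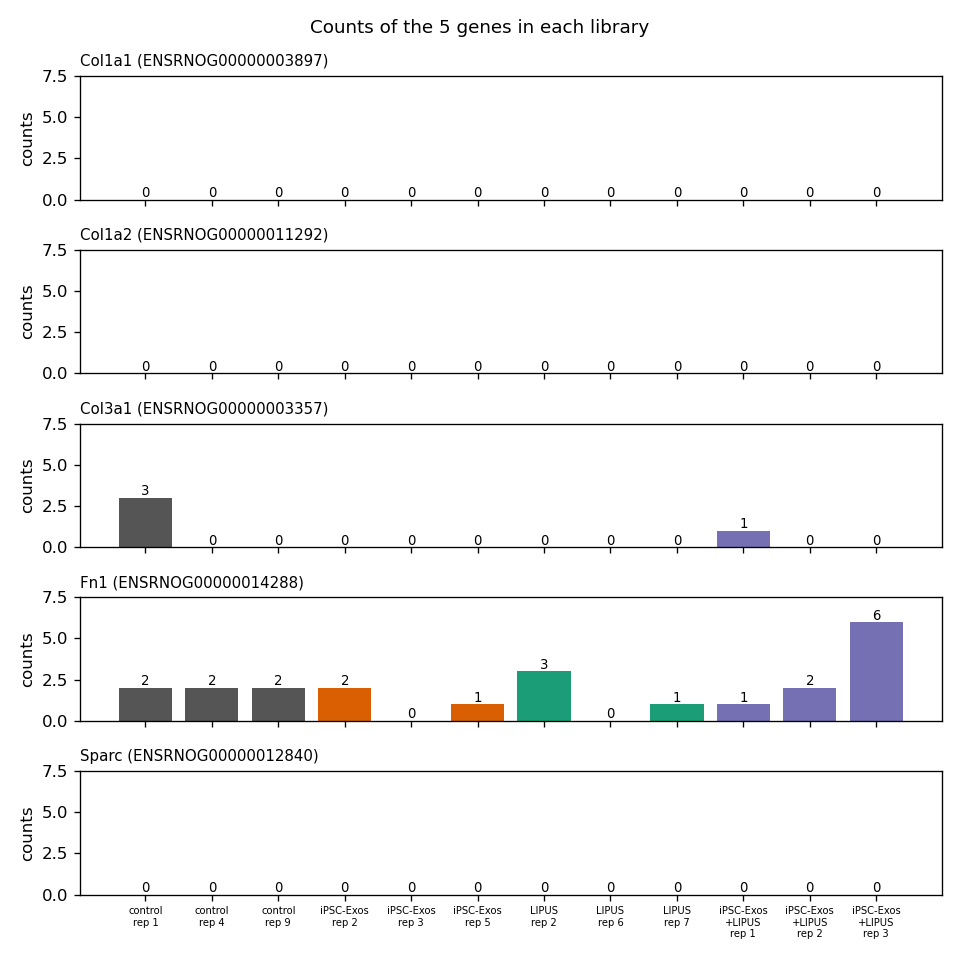
Counts of Col1a1, Col1a2, Col3a1, Fn1 and Sparc (vertical axis, raw counts) in each of the 12 libraries (horizontal axis, group and replicate), with the count written above each bar. Col1a1, Col1a2 and Sparc are at 0 throughout, Col3a1 has counts in 2 libraries and Fn1 reaches its highest value, 6 counts, in iPSC-Exos + LIPUS replicate 3.

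Low counts were common in these libraries, and the 5 genes were set against all IDs as a description. The doubt about how reads were assigned to IDs holds for every ID in the counts, so the numbers of IDs here and the numbers and percentages of genes called below describe assigned counts and were not read as expression. Of the 30562 IDs, 16264 (53.2%) had no count in any library, as had 3 of the 5 genes. The median sum over the 12 libraries was 14 counts among the 14298 IDs with a count, so that the 4 counts of Col3a1 lay below it and the 22 counts of Fn1 above it. A larger sum than that of Col3a1 was found for 9540 IDs (31.2% of all) and a larger one than that of Fn1 for 6335 IDs (20.7%). A count in at least as many libraries as Fn1, 10 of 12, was found for 6021 IDs. In contrast to these genes, 5081 IDs (16.6%) had a count in each of the 12 libraries and 2204 IDs reached at least 1000 counts in all. Levels of different IDs were not compared per length, because no transcript lengths were paired with the IDs.

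**Figure D2:**
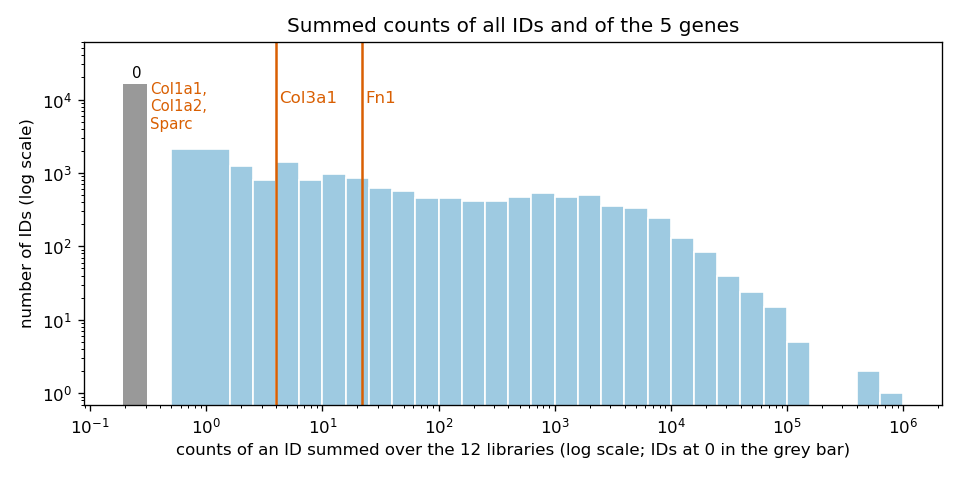
Number of IDs (vertical axis, log scale) by their counts summed over the 12 libraries (horizontal axis, log scale), with the 16264 IDs at 0 in the grey bar. Col1a1, Col1a2 and Sparc belong to the grey bar, and the orange lines mark the sums of Col3a1 (4 counts) and Fn1 (22 counts).

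Fn1 could be compared between groups, but the spread between libraries was as large as the differences. The mean was 1.52 ± 0.173 CPM (SD, n = 3) in the control group, 0.750 ± 0.761 CPM (SD, n = 3) with iPSC-Exos, 1.00 ± 1.18 CPM (SD, n = 3) with LIPUS and 2.07 ± 1.85 CPM (SD, n = 3) with both. The order from low to high was iPSC-Exos, LIPUS, control and iPSC-Exos + LIPUS, and in each pair of neighbours in that order the libraries overlapped. The low SD of the control group comes from 3 equal counts of 2 and is below the counting error, whose exact Poisson interval for the pooled group was 0.554 to 3.28 CPM.

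**Figure D3:**
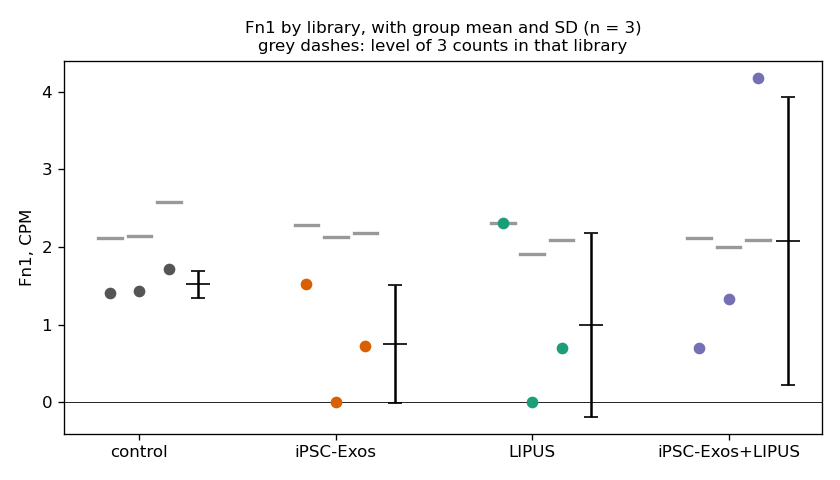
Fn1 in CPM (vertical axis) for the 3 libraries of each group (coloured points) with the group mean and SD (black bar) and the level that 3 counts would give in each library (grey dashes). Of the 12 libraries, iPSC-Exos + LIPUS replicate 3 alone lies above the level of 3 counts, at 4.18 CPM, and LIPUS replicate 2 lies on it, at 2.31 CPM.

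For exosomes without ultrasound, Fn1 had 3 counts with iPSC-Exos and 6 in the control group, a ratio of 0.485 (exact counting interval 0.0785 to 2.27). The difference in mean CPM was -0.772 (exact permutation test, two-sided, p = 0.3). With 3 against 3 libraries such a test cannot go below 0.1. For ultrasound without exosomes, the ratio to the control group was 0.615 (exact counting interval 0.128 to 2.59) and the difference was -0.520 CPM (exact permutation test, p = 0.5). With both treatments, the ratio to the control group was 1.37 (exact counting interval 0.435 to 4.67) and the difference was 0.550 CPM (exact permutation test, p = 1). This last difference turned to -0.503 CPM without iPSC-Exos + LIPUS replicate 3 and was 1.23 and 0.921 CPM without replicates 1 and 2 of that group. The difference for iPSC-Exos was -0.397 CPM without iPSC-Exos replicate 3 and -1.16 CPM without iPSC-Exos replicate 2. The difference for ultrasound was -0.0199 CPM without LIPUS replicate 6 and -1.17 CPM without LIPUS replicate 2. Without control replicate 9, the library with 32.5% of its counts in a single ID, the differences were -0.672 CPM for iPSC-Exos, -0.421 CPM for LIPUS and 0.650 CPM for both. Each interval included 1, so at this depth no change of Fn1 against the control group was detectable in either direction.

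The same held where 1 treatment was added to the other. Exosomes on top of ultrasound gave 9 against 4 Fn1 counts, a ratio of 2.22 (exact counting interval 0.621 to 9.89) and a difference of 1.07 CPM (exact permutation test, p = 0.5). This difference was 0.0171 CPM without iPSC-Exos + LIPUS replicate 3 and 1.75 CPM without replicate 1 of that group, and it was 1.72 and 0.570 CPM without LIPUS replicates 2 and 6. Ultrasound on top of exosomes gave 9 against 3 counts, a ratio of 2.82 (exact counting interval 0.705 to 16.2) and a difference of 1.32 CPM (exact permutation test, p = 0.5), which was 0.269 CPM without iPSC-Exos + LIPUS replicate 3 and 2.01 CPM without replicate 1 of that group.

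Pooling over the other treatment gave 6 against 6 libraries, where an exact permutation test can reach a p of 0.00216. The 6 libraries with iPSC-Exos held 12 Fn1 counts and the 6 without held 10, a ratio of 1.18 (exact counting interval 0.465 to 3.04) and a difference of 0.149 CPM (exact permutation test, p = 0.853). The 6 libraries with LIPUS held 13 counts and the 6 without held 9, a ratio of 1.35 (exact counting interval 0.532 to 3.57) and a difference of 0.401 CPM (exact permutation test, p = 0.639). Without iPSC-Exos + LIPUS replicate 3 these differences became -0.404 and -0.128 CPM. Without LIPUS replicate 6 the difference with iPSC-Exos was -0.103 CPM. The 7 comparisons share libraries and are not independent of each other, and their p-values were not adjusted.

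In the test across all genes, none of the 5 genes could be tested with the filter on low counts. The filter, edgeR's filterByExpr, asks for about 7.44 CPM in at least 3 libraries, and the highest value of Fn1 was 4.18 CPM in 1 library. The genes that passed in the fit of all libraries had at least 56 counts in all. The counts of genes called are given as the background of each comparison, where called means that the quasi-likelihood test of edgeR gave a Benjamini-Hochberg adjusted p below 0.05. For iPSC-Exos against control, 2 of 4278 genes were called (0.0468%). For LIPUS against control, 0 of 4640 genes were called (0%), with 113 at an unadjusted p under 0.05 and 0 called by DESeq2. For iPSC-Exos + LIPUS, 90 genes (1.94%) were called against control, 104 (2.24%) against LIPUS and 0 (0%) against iPSC-Exos, the last with 256 genes at an unadjusted p under 0.05 and 20 called by DESeq2. With against without iPSC-Exos, 246 genes (5.30%) were called. With against without LIPUS, 0 were called (0%), with 183 at an unadjusted p under 0.05 and 3 called by DESeq2. The interaction of both treatments gave 0 (0%), with 196 at an unadjusted p under 0.05 and 0 called by DESeq2. None of these counts says anything of the 5 genes, which were not among the genes tested.

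Without the filter, Fn1 and Col3a1 entered the fit, and neither was called by edgeR in any of the 8 comparisons. DESeq2 gave no adjusted p for either gene in 5 of the 8 comparisons, so that no call was possible there, and called neither in the other 3. Of the 16 tests by each tool, 0 had an unadjusted p under 0.05. The background without a filter was 0.887% of 12173 genes for iPSC-Exos against control and 0.329% of 14298 genes for LIPUS against control. With both treatments it was, of the same 14298 genes, 1.78% against control, 1.96% against LIPUS and 0.594% against iPSC-Exos. It was 2.87% with against without iPSC-Exos, 0.350% with against without LIPUS and 0.448% for the interaction. For Fn1 the log2 fold change was -0.95 (standard error 1.48) for iPSC-Exos against control, with an adjusted p of 0.825 from edgeR's test. It was 0.43 (standard error 1.24, adjusted p = 1 from edgeR) for iPSC-Exos + LIPUS against control. Of the 8 comparisons, iPSC-Exos against control gave the lowest log2 fold change of Fn1 and the interaction the highest, 1.98 (standard error 1.88). Over the 8 comparisons the unadjusted p of Fn1 lay between 0.291 and 0.973 in edgeR and between 0.317 and 0.978 in DESeq2. The smallest unadjusted p of Col3a1 was 0.102 in edgeR and 0.547 in DESeq2. Fitted fold changes of Col3a1 are not given, since in most of its comparisons a group had no count and the fitted value depends on the prior count. Col1a1, Col1a2 and Sparc could not be fitted.

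Covariation between libraries could be computed for 1 of the 10 pairs of these genes, since each of the other 9 pairs includes a gene at 0 throughout. Over the 12 libraries, Fn1 and Col3a1 showed a Pearson's r of 0.00949 (permutation test, p = 0.985) and a Spearman's rho of -0.155 (permutation test, p = 0.631) in log2 CPM. With the group means removed, r was -0.218. Without 2 libraries taken as farthest from the median of Fn1, iPSC-Exos + LIPUS replicate 3 and iPSC-Exos replicate 3, it was 0.0479. LIPUS replicate 6, also at 0 Fn1 counts, lay as far from that median as iPSC-Exos replicate 3 but was kept. The sign of r changed when any of 5 single libraries was left out, among them control replicate 1 (r = -0.150). With counts in 2 libraries for Col3a1, these values describe little more than where its 4 counts fell. Whether the 2 chains of type I collagen vary together, as chains of 1 protein, could not be examined.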

How the data were processed

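RNA of 12 libraries, 3 in each of 4 groups, was sequenced as poly(A)-selected mRNA. Groups and replicate numbers came from the sample titles, and each count column was matched by the library name. The values are gene counts that the authors deposited without normalization. The submitters' processing notes list Trimmomatic (0.38), HISAT2 (2.0.5), SAMtools and StringTie. The 5 genes and all gene lists were chosen with earlier results of these data known. The weight given to the fit without a filter, and the ratios, permutation tests and omissions of single libraries for Fn1, were chosen after the counts of the 5 genes had been seen to be close to 0.

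Counts were tested with edgeR (version 4.0.16, TMM factors, filterByExpr with a minimum count of 10, quasi-likelihood test) in R (version 4.3.3). The 6 libraries of iPSC-Exos and control were fitted alone for their comparison, and all 12 libraries with a mean for each group for the others. DESeq2 (version 1.42.0) was an alternative. The fit was tested on simulated data. Log2 CPM used a prior count of 2. Levels of single genes were compared with exact permutation tests of CPM in scipy (version 1.17.1), and correlations with 100000 resamples. Ratios of counts carry conditional binomial intervals. Fixed lists of other matrix genes and of cell type markers were not analysed, since their symbols could not be matched to IDs. The rule to name the IDs most like the 5 genes in pattern was not applied, since 3 of the 5 are constant at 0. Depth was between 1251715 and 1854545 counts per library.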

Additional observations from a re-analysis of the deposited data

How the results depend on the processing

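None of the 5 genes was called in any of the 137 alternative fits of the 8 comparisons, which changed the scaling factors, the filter, the tool (DESeq2) or the libraries fitted, added the replicate block, or left out each library in turn. In 120 of these fits none of the 5 genes was tested, so a count of 0 there says nothing of stability. With the replicate block in the comparison of both treatments with iPSC-Exos alone, again 0 of the 5 genes were called, and 11 of 4341 genes against 0 without the block. Across genes, deviations from group means gave r of -0.119 and -0.011 in same-numbered libraries and -0.0455 to 0.0606 in other pairs. The first 2 are too few to exclude pairing. The number of all genes called moved more. Over the alternatives other than leaving out a library it lay between 2 and 148 for iPSC-Exos against control (2), 0 and 47 for LIPUS against control (0), 37 and 254 for iPSC-Exos + LIPUS against control (90), 103 and 280 against LIPUS (104), 0 and 85 against iPSC-Exos (0), 244 and 410 with against without iPSC-Exos (246), 0 and 50 with against without LIPUS (0) and 0 and 64 for the interaction (0). Each was highest in an edgeR fit without a filter, and the reason was not tested. For iPSC-Exos against control the 148 came from no filter with all 12 libraries, chosen after seeing the data. With 1 library left out it lay between 0 and 6, 0 and 1, 17 and 122, 15 and 217, 0 and 8, 136 and 331, 0 and 1, and was 0 for the interaction, in the same order.

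The mean of Fn1 in each group moved by less than 1 SD with RLE factors or with library totals alone, and the 7 differences of Fn1 kept their direction under both, where the settings for the differences were added after seeing the data. With each library left out in turn, chosen after seeing the data, the difference ranged from -0.503 to 1.23 CPM for iPSC-Exos + LIPUS against control, from -0.404 to 0.432 CPM with against without iPSC-Exos and from -0.128 to 0.708 CPM with against without LIPUS. The other 4 differences kept their sign, from -1.16 to -0.397 CPM for iPSC-Exos against control, from -1.17 to -0.0199 CPM for LIPUS against control, from 0.0171 to 1.75 CPM for both treatments against LIPUS and from 0.269 to 2.01 CPM for both against iPSC-Exos. In the correlation of Fn1 with Col3a1, for which leaving out each library was among the alternatives first listed, r lay between -0.150 and 0.115, with its sign changed in 5 of 12. The cause was not tested. At 22 and 4 counts, a single count moves each of these values.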
